A study of Mus musculus with 9 samples.

Results

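The response of mouse embryonic stem (ES) cells to 3 h without the essential amino acid (AA) threonine (Thr) was read from 6 of the 9 libraries of this mRNA sequencing experiment, the 3 labelled Thr-starved and the 3 labelled wild-type unstarved. The libraries were taken by label. All 9 libraries come from wild-type E14, a single established line of pluripotent mouse ES cells, grown on gelatin-coated dishes with serum and leukemia inhibitory factor (LIF) and carrying no added allele or transgene. Cells were seeded the day before. The unstarved cells were then held with all AAs, and the Thr-starved cells were held without Thr for 3 h. The 3 remaining libraries, starved of cysteine (Cys) for 3 h, were in the same fit and are used below to show where the response to Thr differed. The labels spell out the medium, with dialyzed serum, LIF and glucose, for Arg and Leu only. The composition of the Thr-free medium and of the medium of its unstarved control, LIF included, is therefore not given in the sources used here. Nothing says that the 3 libraries of a group came from separate cultures, and the p-values measure the spread between these libraries, which may be technical. In libraries of whole cultures, fewer cells of a type and less RNA per cell cannot be told apart.

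Mouse ES cells are known for an unusual need for Thr. They express the mitochondrial enzyme threonine dehydrogenase, encoded by Tdh, which starts the breakdown of Thr to glycine and acetyl-CoA. The glycine feeds the folate one-carbon pool and, through methionine, S-adenosylmethionine (SAM), the methyl donor for histone H3 lysine 4 (H3K4). When any AA runs short, uncharged tRNA activates the kinase GCN2 (Eif2ak4), which phosphorylates eIF2alpha, lowers translation in general and favors translation of the transcription factor ATF4, a route called the integrated stress response (ISR). Separately, AA sensors at the lysosome hold back the growth kinase complex mTORC1.

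The total count per library was 48763102 to 74962733 in the Thr-starved group, 54294288 to 61459894 in the unstarved group and 57700492 to 62657358 in the Cys-starved group. The test was edgeR's quasi-likelihood F test on raw counts of 20143 genes, and genes were called where the p adjusted over all of them (Benjamini-Hochberg) did not exceed 0.05. Levels are CPM, a gene's count relative to the TMM-adjusted total of its library, and a log2 fold change is that of Thr-starved over unstarved libraries. The libraries carried the ES cell factors Pou5f1, Sox2 and Zfp42 at means of 849, 397 and 768 CPM in the unstarved group. Of the other cell types checked, the 8 primitive endoderm markers summed to 9.18 to 10.1 CPM in the unstarved and 8.55 to 9.54 CPM in the Thr-starved libraries. The fibroblast list summed to 469.6 to 522.7 CPM in the unstarved and 870.6 to 1018 CPM in the Thr-starved libraries, mostly the matrix gene Fn1, and its defining collagens Col1a1, Col1a2 and Col3a1 had unstarved means of 5.06, 4.62 and 0.569 CPM. The neural and mesodermal list summed to 164 to 169.8 CPM in the unstarved and 84.1 to 87.6 CPM in the Thr-starved libraries, nearly all of it the tubulin gene Tubb3. The trophectoderm list summed to 77.2 to 81.5 CPM in the unstarved and 85.6 to 88.7 CPM in the Thr-starved libraries, and its factor Cdx2 was at 1.26 CPM. The part of such cells in the results was not tested.

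Thr starvation moved most of the transcriptome by small amounts. Of the genes tested 63% were called, 31.1% higher and 31.9% lower, and of the 11359 genes that averaged 5 CPM or more over the 6 libraries, termed expressed here, 80.6% were called, 42% higher and 38.6% lower. Among expressed genes the median size of a called change was 0.39 on the log2 scale. A change of at least 1 on that scale was called higher in 428 expressed genes (3.77%) and lower in 463 (4.08%), and over all genes in 5.79% and 7.46%. The 2 groups did not overlap for 82% of expressed genes and 66.5% of all genes. Groups that lie apart are therefore the rule, and in genes named for large changes they add no support. The call rate rose with the level, from 27.6% of genes under 1 CPM to 89.5% of the 76 genes at 1000 CPM or more. The common biological coefficient of variation of the fit, which leaves out counting noise, was 3.53%. With so many genes called, the number of called members in a group of genes says little, and direction and size are described below. The median over all expressed genes was 0.017, so a group's median can be read against 0. The TMM adjustment centers most genes near 0 by design. This median and the even split of calls therefore do not measure a shift of total mRNA, and changes are relative to the bulk of genes.

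**Figure D1:**
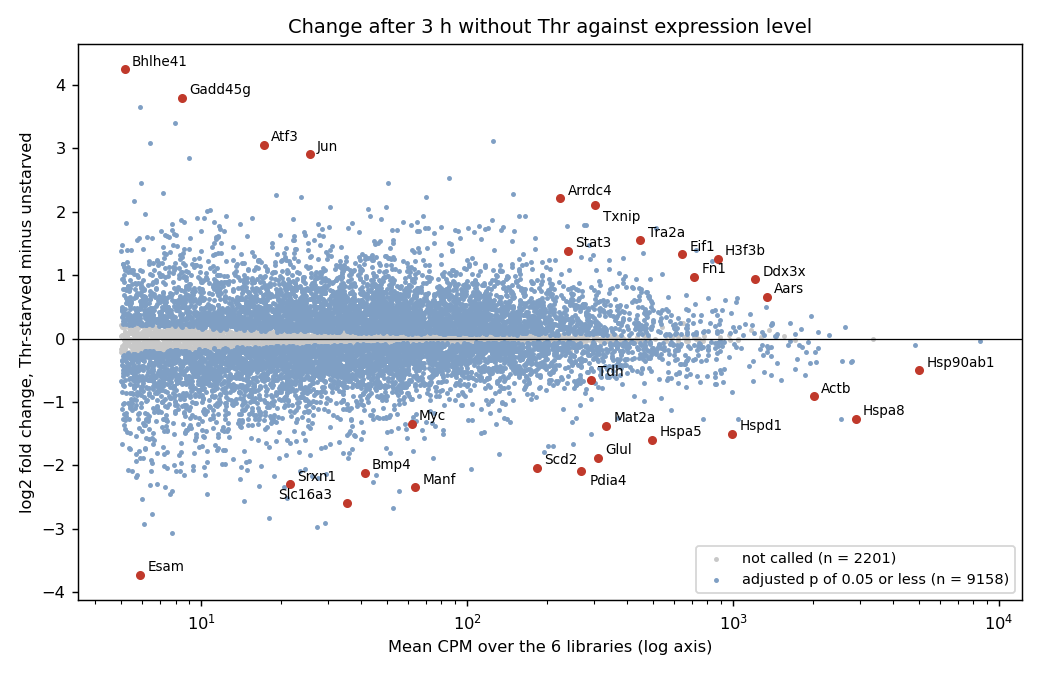
Each point is an expressed gene, with its mean CPM over the 6 libraries on a log axis and its log2 fold change, Thr-starved minus unstarved, on the vertical axis; blue marks called genes, and red marks the genes labeled by name. The 9158 called genes spread on both sides of 0 at all levels, with Bhlhe41 at 4.25 and Esam at -3.73 as the extremes.

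Ranked by log2 fold change among expressed, called genes whose libraries do not overlap between the groups, the 15 strongest rises were led by genes that were nearly silent in unstarved cells. Bhlhe41, a repressor that acts in the circadian clock, was at 0.562, 0.529 and 0.445 CPM in the unstarved and 9.57, 9.46 and 10.3 CPM in the Thr-starved libraries (log2 fold change 4.25, SE 0.16, adjusted p = 4.1e-16). Atp12a, a proton-potassium pump, was at 0.893, 0.893 and 0.797 CPM in the unstarved and 10.7, 10.9 and 11.2 CPM in the Thr-starved libraries (log2 fold change 3.66, SE 0.12, adjusted p = 2.7e-17). Insm1, a zinc-finger factor of neuroendocrine cells, went from 1.36 to 11.5 CPM (log2 fold change 3.08, SE 0.12, adjusted p = 1.1e-15). The fitted fold changes were 19, 12.6 and 8.48. These 3 genes averaged 5 CPM only through the Thr-starved libraries, as did others of the 15, of which 9 had an unstarved mean under 5 CPM, so the filter shapes the low starting levels. Dusp8, a phosphatase gene with a log2 fold change of 4.84 from 0.328 to 9.58 CPM, averaged 4.95 CPM and was left out of the ranking. Tent5a, a poly(A) polymerase, rose by 2.84 ± 0.10 (SE) on the log2 scale (adjusted p = 1.1e-16) and Rassf1, a tumor suppressor of the Hippo route, by 2.26 ± 0.057 (SE) on the log2 scale (adjusted p = 2.8e-19). The axonemal dynein gene Dnah7c is also among the 15, but 100% of its longest transcript matches Dnah7a or Dnah7b at 95% identity or more, so its reads cannot be assigned with certainty.

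Of the 15 strongest falls, 9 had a mean under 5 CPM in the Thr-starved group. Ngfr, a neurotrophin receptor, was at 50.7, 52.3 and 51.8 CPM in the unstarved and 5.86, 7.25 and 7.36 CPM in the Thr-starved libraries (log2 fold change -2.91, SE 0.057, adjusted p = 2.9e-21). The adhesion molecule Ceacam1 dropped from 31.5 to 4.44 CPM (log2 fold change -2.83, SE 0.061, adjusted p = 1.5e-20), and its neighbor Ceacam2 by 2.93 ± 0.11 (SE) on the log2 scale (adjusted p = 2.9e-16); 60.7% of the Ceacam1 transcript matches Ceacam2, so the pair may share reads. Sgms2, which makes sphingomyelin at the plasma membrane, fell by 2.76 ± 0.10 (SE) on the log2 scale (adjusted p = 1.5e-16). The sugar-transferring Golgi enzymes Mgat3 and Chst12 changed by -2.52 and -2.44. Krt17, a keratin, and Dmtn, which bundles actin under the membrane, changed by -2.56 and -2.41. Genes were ranked here only if the groups did not overlap.

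Ranked instead by the change in mean CPM, an order that favors abundant genes, the 10 largest losses were in Hspa8 and its copies Gm15459 and Gm8355, Hsp90ab1, Hspd1, Actb, Actg1, Tubb5, Ptma and Ncl. Hspa8, the constitutive cytosolic HSP70, was at 4064, 4108 and 4082 CPM in the unstarved and 1687, 1691 and 1711 CPM in the Thr-starved libraries (log2 fold change -1.27, SE 0.014, adjusted p = 4.7e-25). It was the gene with the largest loss of CPM, but 84.5% of its transcript has near-identical copies, and the copies Gm15459 (-1.26) and Gm8355 (-1.26), which match fully, were lower as well and may share its reads. Hsp90ab1, the constitutive HSP90, went from 5876 to 4145 CPM (log2 fold change -0.50, SE 0.012, adjusted p = 1.4e-19) and beta-actin (Actb) from 2626 to 1396 CPM (log2 fold change -0.91, SE 0.028, adjusted p = 1.1e-17). The largest gain in CPM was in Ddx3x, an RNA helicase used in translation initiation, at 849, 831 and 817 CPM in the unstarved and 1616, 1602 and 1559 CPM in the Thr-starved libraries (log2 fold change 0.94, SE 0.019, adjusted p = 4.4e-21). H3f3b, which encodes the replication-independent histone H3.3, rose from 518 to 1234 CPM (log2 fold change 1.25, SE 0.019, adjusted p = 3.8e-23; 21.8% of the transcript has near copies), and Eif1, the factor that selects the start codon, from 366 to 919.7 CPM (log2 fold change 1.33, SE 0.022, adjusted p = 2.4e-22; 49.8% of the transcript has near copies). For none of these genes did the groups overlap, nor did they for 82% of all expressed genes.

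The direction of change followed base composition. Expressed protein-coding genes whose longest transcript has a GC content under 40% had a median log2 fold change of 0.27, with 66.1% called higher, and those of at least 60% GC a median of -0.27, with 60.9% called lower. Across 9700 genes Spearman's rho with GC content was -0.303, against 0.052 with transcript length, -0.055 with exon number and -0.034 with the share of Thr codons in the coding sequence. These are descriptions across genes measured in the same libraries, which are not independent replicates. Genes that rose by at least 1 had a median GC content of 47.8% and a median of 6 exons, those that fell by at least 1 had 55.5% and 10, and those not called had 49.8% and 9. The median share of Thr codons was 4.92%, 5.08% and 5.02% in the same order. The part of library preparation in the trend was not tested. For the lists and the 403 genes named by rule (given below), the trend with GC content and length was also removed from each library. Values that then turned direction or moved by over 1.5 times are given beside the main value as the value with GC and length offsets. Genes named outside that rule, such as Pycr1, Got1, Kdm5c, Mthfd1l, Canx and Dnajb11, were not checked in this way.

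**Figure D2:**
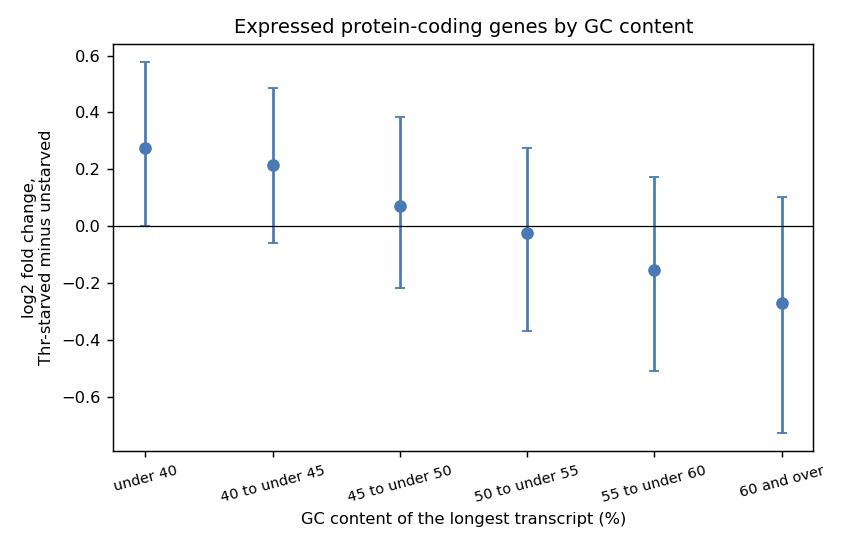
Points give the median log2 fold change, Thr-starved minus unstarved, of expressed protein-coding genes in bins of transcript GC content, and bars span the quartiles. The median falls from 0.27 in the lowest bin to -0.27 in the highest, with quartiles that overlap between neighboring bins.

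The comparison addresses how the genes that use Thr and its products respond when it is withdrawn. Tdh (ENSMUSG00000021953; chr14:63492347-63509092 of GRCm38) was at 358, 361 and 351 CPM in the unstarved and 224, 228 and 230.1 CPM in the Thr-starved libraries (log2 fold change -0.65, SE 0.022, adjusted p = 4.7e-17). All 3 Thr-starved libraries lay below the unstarved ones, and 59.5% of its longest transcript matches the pseudogene Gm13929. Gcat, the next enzyme of the route, was at 9.13, 9.17 and 8.79 CPM in the unstarved and 9.04, 7.34 and 7.97 CPM in the Thr-starved libraries and was not called (log2 fold change -0.15, adjusted p = 0.082; -0.23 and called without Thr-starved replicate 1; -0.094 without Thr-starved replicate 2; 0.041 and not called with GC and length offsets). A second gene entry of the same symbol matches 47.8% of the Gcat transcript. In the glycine cleavage system, which passes the carbon of glycine to folate, the decarboxylase Gldc fell by 0.28 ± 0.030 (SE) on the log2 scale (adjusted p = 2.3e-08, -0.10 with GC and length offsets) and the carrier protein Gcsh by 0.36 ± 0.029 (SE) on the log2 scale (adjusted p = 2.6e-10), while the transferase Amt rose by 0.44 ± 0.038 (SE) on the log2 scale (adjusted p = 5.7e-10).

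Of the 19 serine and folate enzymes in the table, 10 were called higher, 6 lower and 3 neither (median log2 fold change 0.083). Mthfd2, the mitochondrial dehydrogenase that is a known ATF4 target, was at 296, 307 and 300.3 CPM in the unstarved and 526, 518 and 545 CPM in the Thr-starved libraries (log2 fold change 0.81, SE 0.023, adjusted p = 1.7e-18). Aldh1l2, which oxidizes formyl-folate in mitochondria, changed by 0.93 and Shmt2, which converts serine to glycine there, by 0.40 (0.61 with the offsets). The related mitochondrial enzymes Mthfd1l and Mthfd2l had log2 fold changes of 0.083 and -0.45. On the lower side, Fpgs, which adds the glutamate tail that holds folates in cells, fell by 1.03 ± 0.036 (SE) on the log2 scale (adjusted p = 6.5e-17), and Mtfmt, which formylates the mitochondrial initiator tRNA, by 0.71 ± 0.069 (SE) on the log2 scale (adjusted p = 5.3e-09). Phgdh, the entry enzyme of serine synthesis, changed by -0.26 (-0.068 with the offsets), with 89.5% of its transcript matched by copies, and Psat1, the next enzyme, by 0.24.

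The methionine cycle and the polyamine branch that consumes SAM were mostly lower: of 25 genes, 6 were called higher, 14 lower and 5 neither (median log2 fold change -0.24, and -0.15 with GC and length offsets). Of the 23 expressed ones 14 were called lower, against 38.6% of all expressed genes. Mat2a, the enzyme that makes SAM, was at 489, 466 and 488 CPM in the unstarved and 187, 194 and 177 CPM in the Thr-starved libraries (log2 fold change -1.37, SE 0.030, adjusted p = 2.0e-20). Srm, which makes spermidine, was at 287, 296 and 296 CPM in the unstarved and 177, 182 and 182 CPM in the Thr-starved libraries (log2 fold change -0.70, SE 0.025, adjusted p = 1.5e-16, -0.40 with GC and length offsets). Mtap, which salvages methionine from the by-product of polyamine synthesis, went from 71.3 to 43 CPM (log2 fold change -0.73, SE 0.036, adjusted p = 3.1e-14). No Thr-starved library reached the unstarved range in these 3 genes; 34.3% of the Mat2a transcript has copies elsewhere. Ahcyl2, a homolog of the enzyme that clears the by-product of methylation, rose by 0.67 ± 0.044 (SE) on the log2 scale (adjusted p = 5.2e-12), and Azin1, which protects ornithine decarboxylase from its antizyme, by 0.58 ± 0.024 (SE) on the log2 scale (adjusted p = 1.6e-15, 0.34 with GC and length offsets). Amd1, which decarboxylates SAM, changed by 0.38 (0.19 with the offsets), and 99.8% of its transcript matches copies such as Amd2.

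Among 18 genes for enzymes and cofactors of H3K4 methylation, 7 were called higher, 8 lower and 3 neither, so that the group as a whole had no direction. Setd1b, a methyltransferase of the COMPASS family, was at 52.4, 55.5 and 52.1 CPM in the unstarved and 21, 21.3 and 19.4 CPM in the Thr-starved libraries (log2 fold change -1.38, SE 0.044, adjusted p = 1.6e-17), while Kmt2a (MLL1), another writer of the mark, went from 46.8 to 79.9 CPM (log2 fold change 0.76, SE 0.12, adjusted p = 7.4e-06). Of the erasers, Kdm2b, also a CpG-island binding subunit of a Polycomb complex, fell by 1.19 ± 0.037 (SE) on the log2 scale (adjusted p = 9.7e-18). Kdm1b (LSD2) fell by 1.17 ± 0.058 (SE) on the log2 scale (adjusted p = 3.7e-14) and Kdm5b by 0.41 ± 0.021 (SE) on the log2 scale (adjusted p = 7.7e-14). Kdm5a rose by 0.46 (0.23 with GC and length offsets) and Kdm5c by 0.27 on the log2 scale. The groups did not overlap in any of the 7, nor in 82% of all expressed genes.

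Most genes of the ISR list rose. Of its 21 regulators and effectors in the table, 20 were called higher and 1 lower (median log2 fold change 0.94). The list was chosen with earlier results of these data known. Known ATF4 targets also sit in the list of nonessential AA synthesis, where 8 of 21 genes were called higher and 10 lower. The median of the expressed members relative to the unstarved mean was -0.024 to 0.028 in the unstarved libraries and 0.89 to 0.97 in the Thr-starved libraries. Nupr1, a chromatin-associated stress factor, was at 20.1, 18.3 and 18.9 CPM in the unstarved and 81.6, 78.9 and 80.3 CPM in the Thr-starved libraries (log2 fold change 2.07, SE 0.038, adjusted p = 1.1e-21). Chac1, which degrades glutathione, was at 27.1, 29.2 and 26.4 CPM in the unstarved and 96.6, 92.9 and 95.8 CPM in the Thr-starved libraries (log2 fold change 1.78, SE 0.035, adjusted p = 3.4e-21), and Trib3, a pseudokinase that restrains ATF4 and AKT, at 79, 81.9 and 80.7 CPM in the unstarved and 166, 166 and 176 CPM in the Thr-starved libraries (log2 fold change 1.08, SE 0.028, adjusted p = 5.0e-19). Both groups were tight and apart in these genes. The transcription factor genes Atf3, Ddit3 (CHOP) and Atf4 rose by 3.06, 2.46 and 0.73 on the log2 scale; Ddit3 overlaps a second gene entry of the same symbol on its strand. The exception was Cebpa, a C/EBP factor of low level with an unstarved mean of 1.68 CPM and a log2 fold change of -1.16. Of the kinases that phosphorylate eIF2alpha, GCN2 (Eif2ak4) changed by -0.33, PERK (Eif2ak3) by 0.14 (0.24 with the offsets), PKR (Eif2ak2) by 0.69 and HRI (Eif2ak1) by -0.84, all called.

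Many ISR genes are known to carry a C/EBP-ATF response element near the start site, to which ATF4 dimers bind. The letters TGATGNAA were searched on both strands in the RefSeq promoter windows of GRCm38.p6, 250 bases before to 50 bases after each start, and 3.97% of all 32851 windows held them. A window was found for 18 of the ISR genes, and 7 of these held a match. Of 13 cytosolic aminoacyl-tRNA synthetase genes with a window 5 held a match, and of 15 genes of nonessential AA synthesis 4. All these lists hold known ATF4 targets, so these shares are descriptions. The ISR and synthetase genes with a match were called higher, as were most genes of those lists. Of the 4 genes of nonessential AA synthesis with a match, Asns and Got1 were called higher. Pycr1 and Pck2 were called lower, with log2 fold changes of -0.23 and -0.27 (-0.17 for Pck2 with GC and length offsets). The stretches below show the match, in capitals, with 15 bases on each side. They are for ISR genes that rose, for Asns and for the synthetase gene Tars. A match on the opposite strand is shown as it reads on the strand of the gene.
Atf3 (chr1:191183421-191183458, minus strand): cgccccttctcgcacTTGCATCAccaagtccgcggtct
Nupr1 (chr7:126625558-126625595, minus strand): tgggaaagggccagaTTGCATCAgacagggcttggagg
Chac1 (chr2:119351034-119351071, plus strand): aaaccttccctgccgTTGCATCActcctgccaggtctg
Trib3 (chr2:152344024-152344061, minus strand): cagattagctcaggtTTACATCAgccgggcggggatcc
Herpud1 (chr8:94386302-94386339, plus strand): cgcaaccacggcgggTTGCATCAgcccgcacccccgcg
Asns (chr6:7693210-7693247, minus strand): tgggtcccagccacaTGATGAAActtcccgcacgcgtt
Tars (chr15:11399651-11399688, minus strand): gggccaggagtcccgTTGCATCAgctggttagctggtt

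Genes that load tRNAs changed little beside the ISR. Of the 21 cytosolic synthetases, 14 were called higher, 4 lower and 3 neither (median log2 fold change 0.17). Tars, which charges the tRNA of the missing AA, was at 346, 353 and 357 CPM in the unstarved and 405, 400.4 and 417 CPM in the Thr-starved libraries (log2 fold change 0.21, SE 0.022, adjusted p = 1.6e-08), a small rise beside that of Aars, for alanine, at 1016, 1070.0 and 1024 CPM in the unstarved and 1638, 1636 and 1636 CPM in the Thr-starved libraries (log2 fold change 0.66, SE 0.018, adjusted p = 1.3e-18; 23.1% of the transcript matches Exosc6). Tarsl2, its cytosolic paralog, fell by 0.60 ± 0.073 (SE) on the log2 scale (adjusted p = 1.6e-07) and Tars2, its mitochondrial counterpart, was not called (log2 fold change 0.03, adjusted p = 0.43). The synthetases for cysteine (Cars), asparagine (Nars) and methionine (Mars) had log2 fold changes of 0.63, 0.55 and 0.51, and that for glutamine (Qars) of -0.50. Of the 17 mitochondrial enzymes, 5 were called higher, 9 lower and 3 neither (median log2 fold change -0.077); the median was -0.13 without Thr-starved replicate 3.

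AA transporters split by gene. Of the 25 plasma membrane transporter genes, 7 were called higher, 12 lower and 6 neither (median log2 fold change -0.14; -0.078 with GC and length offsets). Slc1a4, a carrier of alanine, serine, cysteine and Thr, was at 41.5, 43.9 and 44.3 CPM in the unstarved and 80.4, 79.3 and 82.3 CPM in the Thr-starved libraries (log2 fold change 0.90, SE 0.033, adjusted p = 1.6e-16), and Slc3a2, the heavy chain shared by several exchangers, at 349.7, 359 and 355 CPM in the unstarved and 586, 589 and 594 CPM in the Thr-starved libraries (log2 fold change 0.73, SE 0.021, adjusted p = 1.9e-18). Slc6a6, the taurine carrier, was at 318, 331 and 317 CPM in the unstarved and 96, 100.3 and 102 CPM in the Thr-starved libraries (log2 fold change -1.7, SE 0.026, adjusted p = 5.9e-23). The first pair was higher and Slc6a6 lower in every Thr-starved library. Slc1a5, another carrier that accepts Thr, was not called (log2 fold change 0.0022, adjusted p = 0.96, 0.23 with GC and length offsets), and Slc7a5, the carrier of large neutral AAs, changed by 0.17 (0.43 with the offsets). Slc38a2, a system A carrier known to rise in AA shortage, fell by 0.19 ± 0.020 (SE) on the log2 scale (adjusted p = 1.0e-08, -0.31 with GC and length offsets).

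Synthesis of nonessential AAs was split as well, with 8 of 21 genes higher, 10 lower and a median of -0.11 that turned to 0.025 with GC and length offsets. Glul, glutamine synthetase, was at 476, 494 and 489 CPM in the unstarved and 131, 132 and 133 CPM in the Thr-starved libraries (log2 fold change -1.88, SE 0.023, adjusted p = 1.7e-24; 40.2% of the transcript matches a pseudogene). Bcat2, the mitochondrial enzyme that starts the breakdown of branched-chain AAs, went from 118 to 43.3 CPM (log2 fold change -1.45, SE 0.030, adjusted p = 7.7e-21), and Pycrl, of proline synthesis, from 33.4 to 15.9 CPM (log2 fold change -1.06, SE 0.048, adjusted p = 8.9e-15). Higher were Cth, which makes cysteine from cystathionine (log2 fold change 0.81, SE 0.027, adjusted p = 3.6e-17), Gpt2, mitochondrial alanine transaminase (log2 fold change 0.71, SE 0.023, adjusted p = 2.4e-17), and Asns, asparagine synthetase (log2 fold change 0.45, SE 0.022, adjusted p = 2.9e-14). None of these 6 genes overlapped between the groups, as was true of 82% of all expressed genes.

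Genes of AA sensing by mTORC1 moved in both directions: of 37, 19 were called higher, 14 lower and 4 neither (median log2 fold change 0.17; 0.27 with GC and length offsets). The Leu sensors of the Sestrin family diverged, as Sesn2 went from 171 to 424 CPM (log2 fold change 1.31, SE 0.023, adjusted p = 3.0e-22) and Sesn1 from 9.04 to 5.13 CPM (log2 fold change -0.82, SE 0.089, adjusted p = 3.0e-08). Castor1, the Arg sensor, was at 29.3, 31.8 and 31.6 CPM in the unstarved and 8.0, 8.35 and 8.66 CPM in the Thr-starved libraries (log2 fold change -1.88, SE 0.053, adjusted p = 2.2e-18) and its paralog Castor2 changed by -1.27. Castor1 was below the unstarved range in every Thr-starved library. Among the lysosomal GTPases, Rragc rose by 0.63 ± 0.035 (SE) on the log2 scale (adjusted p = 2.7e-13) and Rragd fell by 0.86 ± 0.036 (SE) on the log2 scale (adjusted p = 1.9e-15), and Flcn, which activates the Rag C and D proteins, rose by 0.87 ± 0.037 (SE) on the log2 scale (adjusted p = 3.1e-15). Ddit4 (REDD1), an inhibitor upstream of mTORC1, changed by 0.94.

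Of 9 secreted stress factors, 4 were called higher, 2 lower and 3 neither (median log2 fold change 0.27; 0.61 with GC and length offsets); the median was 0.48 without Thr-starved replicate 2. Gdf15, a hormone that signals cell stress to the brain stem, was at 8.5, 8.27 and 8.09 CPM in the unstarved and 39.1, 39.5 and 38.2 CPM in the Thr-starved libraries (log2 fold change 2.23, SE 0.048, adjusted p = 1.9e-20). Adm2, a peptide of the calcitonin family, was at 4.37, 4.5 and 3.8 CPM in the unstarved and 17.6, 17.2 and 17.2 CPM in the Thr-starved libraries (log2 fold change 2.03, SE 0.067, adjusted p = 3.2e-17), and Inhbe, an activin subunit, changed by 0.99. The 3 were higher in every Thr-starved library, whereas Angptl4, which restrains lipoprotein lipase, changed by -1.34. Fgf21, the best-known secreted ATF4 target, had unstarved and Thr-starved means of 0.258 and 0.296 CPM and was not called.

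**Figure D3:**
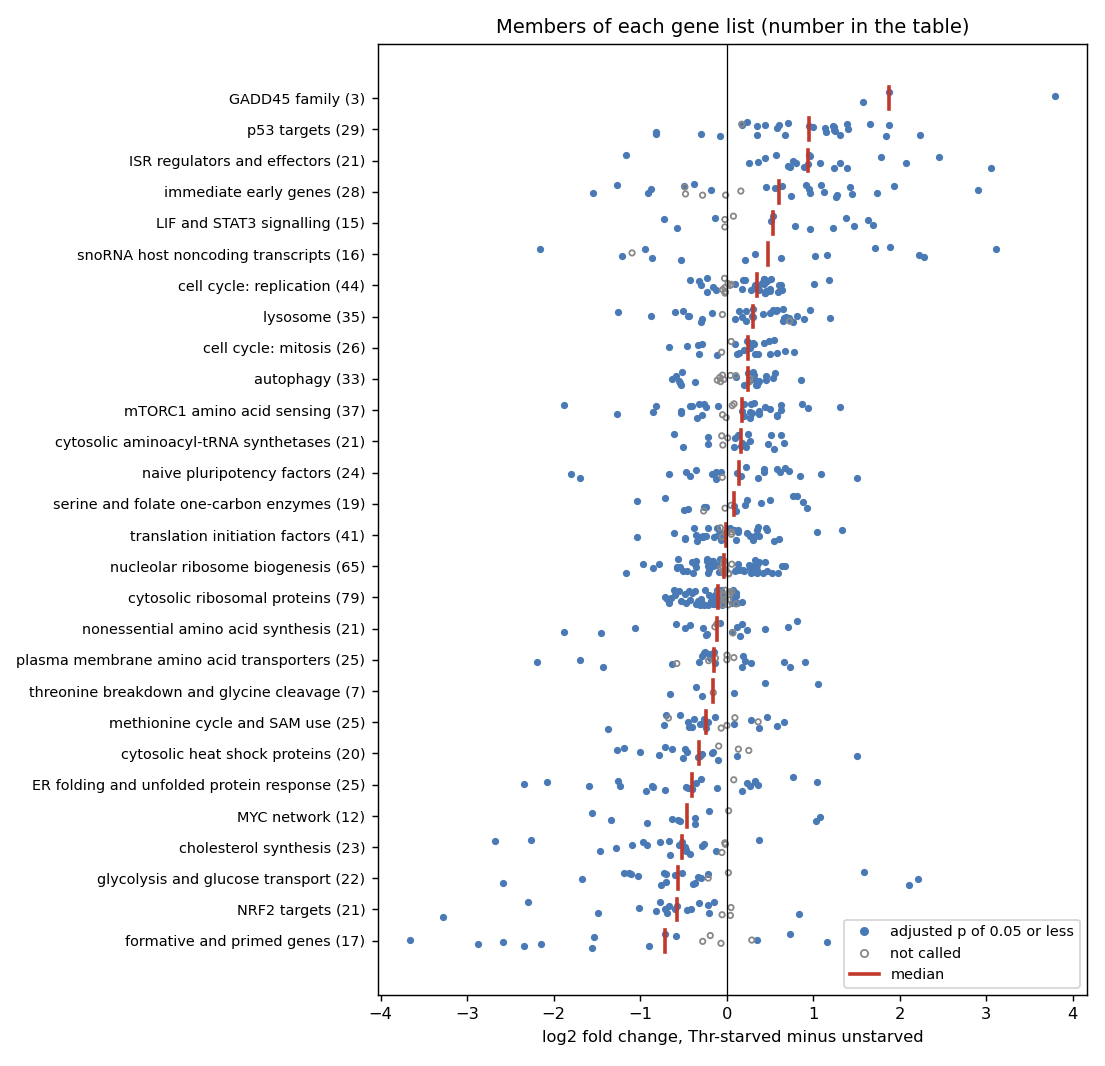
Each row is a gene list with the number of its members in the table, each point a member's log2 fold change, Thr-starved minus unstarved, filled where called, and each red bar the list's median. Medians run from -0.71 for formative and primed genes to 1.88 for the GADD45 family, and most lists hold members on both sides of 0.

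Most chaperone genes of the endoplasmic reticulum (ER) fell. Of 25 genes of ER folding and the unfolded protein response (UPR), 8 were called higher, 16 lower and 1 neither (median log2 fold change -0.40). All 25 were expressed, and 38.6% of all expressed genes were called lower. Hspa5 (BiP), the main ER chaperone, was at 733, 746 and 753 CPM in the unstarved and 246, 244 and 249.7 CPM in the Thr-starved libraries (log2 fold change -1.59, SE 0.021, adjusted p = 7.4e-24). Pdia4, a disulfide isomerase, was at 425, 434 and 435 CPM in the unstarved and 97.2, 103 and 105 CPM in the Thr-starved libraries (log2 fold change -2.08, SE 0.028, adjusted p = 7.4e-24), and Manf, a small ER stress protein, at 108, 105 and 107 CPM in the unstarved and 21.7, 20.7 and 20.6 CPM in the Thr-starved libraries (log2 fold change -2.35, SE 0.035, adjusted p = 3.8e-23). The Thr-starved libraries were below the unstarved ones in each, and the Cys-starved group had means of 511, 329.8 and 78.8 CPM in the same order. Xbp1, the UPR transcription factor, fell by 1.23 ± 0.039 (SE) on the log2 scale (adjusted p = 1.3e-17), whereas Atf6, the membrane-bound UPR factor, rose from 42.7 to 88 CPM (log2 fold change 1.04, SE 0.034, adjusted p = 2.5e-17) and Herpud1, which assists ER-associated degradation, from 42.6 to 72.7 CPM (log2 fold change 0.77, SE 0.034, adjusted p = 4.0e-15). The chaperone genes Canx and Dnajb11 were called higher as well, by 0.27 and 0.23 on the log2 scale.

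Genes of ER folding are known for the ER stress response element, CCAAT and CCACG separated by 9 bases, to which ATF6 and NF-Y bind. Searched on both strands after the values were seen, it was in 0.119% of all promoter windows and in 9 of the 21 ER genes that had one, a list of known targets. Of these 9, Hspa5, Hsp90b1, Pdia6, Calr, Creld2, Syvn1 and Derl3 were called lower, Canx was called higher and Dnajc3 was not called. The match with the spacer is in capitals, on either strand, for 4 genes that fell and for Canx.
Hspa5 (chr2:34772010-34772058, plus strand): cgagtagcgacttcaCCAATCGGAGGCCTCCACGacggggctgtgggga
Pdia6 (chr12:17266476-17266524, plus strand): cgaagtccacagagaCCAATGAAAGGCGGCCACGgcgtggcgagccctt
Calr (chr8:84847060-84847108, minus strand): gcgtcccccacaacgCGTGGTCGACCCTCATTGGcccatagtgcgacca
Creld2 (chr15:88819505-88819553, plus strand): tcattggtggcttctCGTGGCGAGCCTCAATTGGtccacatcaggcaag
Canx (chr11:50325785-50325833, minus strand): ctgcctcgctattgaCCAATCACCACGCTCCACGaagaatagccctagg

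The cytosolic heat shock list was lower as well, with 2 called higher, 15 lower and 3 neither (median log2 fold change -0.32) among 20 genes. Besides Hspa8 and Hsp90ab1, Hsph1, a nucleotide exchange factor for HSP70, was at 289, 293 and 295 CPM in the unstarved and 172, 168 and 172 CPM in the Thr-starved libraries (log2 fold change -0.78, SE 0.022, adjusted p = 2.2e-18), below the unstarved range in all 3 Thr-starved libraries. The inducible pair Hspa1a and Hspa1b changed by -1.0 (-0.65 with the offsets) and -1.19, with 75.7% and 78.5% of their transcripts matched by near-identical sequence. Of the 2 that rose, Hspb8, a small heat shock protein that works with Bag3 in chaperone-assisted autophagy, went from 9.62 to 27.2 CPM (log2 fold change 1.5, SE 0.055, adjusted p = 2.0e-16). The other, Hspa4, rose by only 0.12 on the log2 scale.

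Sterol genes, which the SREBP factors drive when membrane cholesterol is low, fell along the pathway. Of 23 genes, 1 was called higher, 19 lower and 3 neither (median log2 fold change -0.52). Dhcr7, which catalyzes the last step of synthesis, was at 35.5, 37.2 and 34.7 CPM in the unstarved and 7.16, 7.74 and 7.54 CPM in the Thr-starved libraries (log2 fold change -2.26, SE 0.053, adjusted p = 9.2e-20), and Hmgcs1, an early enzyme, at 174, 172 and 164 CPM in the unstarved and 59.3, 64.6 and 60.5 CPM in the Thr-starved libraries (log2 fold change -1.47, SE 0.032, adjusted p = 2.0e-20). The Thr-starved libraries were far below the unstarved ones in both. Lss, which closes the sterol rings, was the only member called higher (log2 fold change 0.38, SE 0.034, adjusted p = 1.4e-09). Of 16 members with a promoter window, the SREBP site TCACNCCAC was found in Hmgcs1 alone, against 1.24% of all windows; the search was added after the values were seen.
Hmgcs1 (chr13:119690199-119690237, plus strand): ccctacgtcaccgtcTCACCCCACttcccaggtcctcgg

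Messenger RNAs of sugar uptake and breakdown fell. None of the 17 glycolytic enzyme and carrier genes was called higher and 15 were called lower, with a median log2 fold change of -0.60. Slc2a1 (GLUT1), a glucose carrier, was at 379.9, 386 and 371 CPM in the unstarved and 115, 122 and 121 CPM in the Thr-starved libraries (log2 fold change -1.67, SE 0.026, adjusted p = 8.0e-23), and Slc16a3 (MCT4), which exports lactate, at 62, 59.3 and 60.5 CPM in the unstarved and 9.92, 9.79 and 10.5 CPM in the Thr-starved libraries (log2 fold change -2.58, SE 0.048, adjusted p = 1.3e-21). Txnip, an arrestin-domain protein that binds thioredoxin and drives GLUT1 endocytosis, was at 113, 115 and 114 CPM in the unstarved and 480.3, 503 and 495 CPM in the Thr-starved libraries (log2 fold change 2.11, SE 0.025, adjusted p = 1.4e-24). The groups were apart in all 3 genes, in opposite directions. Of 5 arrestin-domain genes 3 were called higher and 2, Arrdc1 (-1.19) and Arrdc2 (-0.72), lower. The Txnip paralog Arrdc4 rose by 2.21 ± 0.027 (SE) on the log2 scale (adjusted p = 1.6e-24) and Arrdc3 by 1.59 ± 0.026 (SE) on the log2 scale (adjusted p = 2.0e-22), while the enzymes Pfkm and Tpi1 fell by 1.13 ± 0.059 (SE) on the log2 scale (adjusted p = 8.6e-14) and 1.1 ± 0.023 (SE) on the log2 scale (adjusted p = 1.0e-20). Hk2, hexokinase, was not called (log2 fold change 0.02, adjusted p = 0.46, 0.14 with GC and length offsets).

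**Figure D4:**
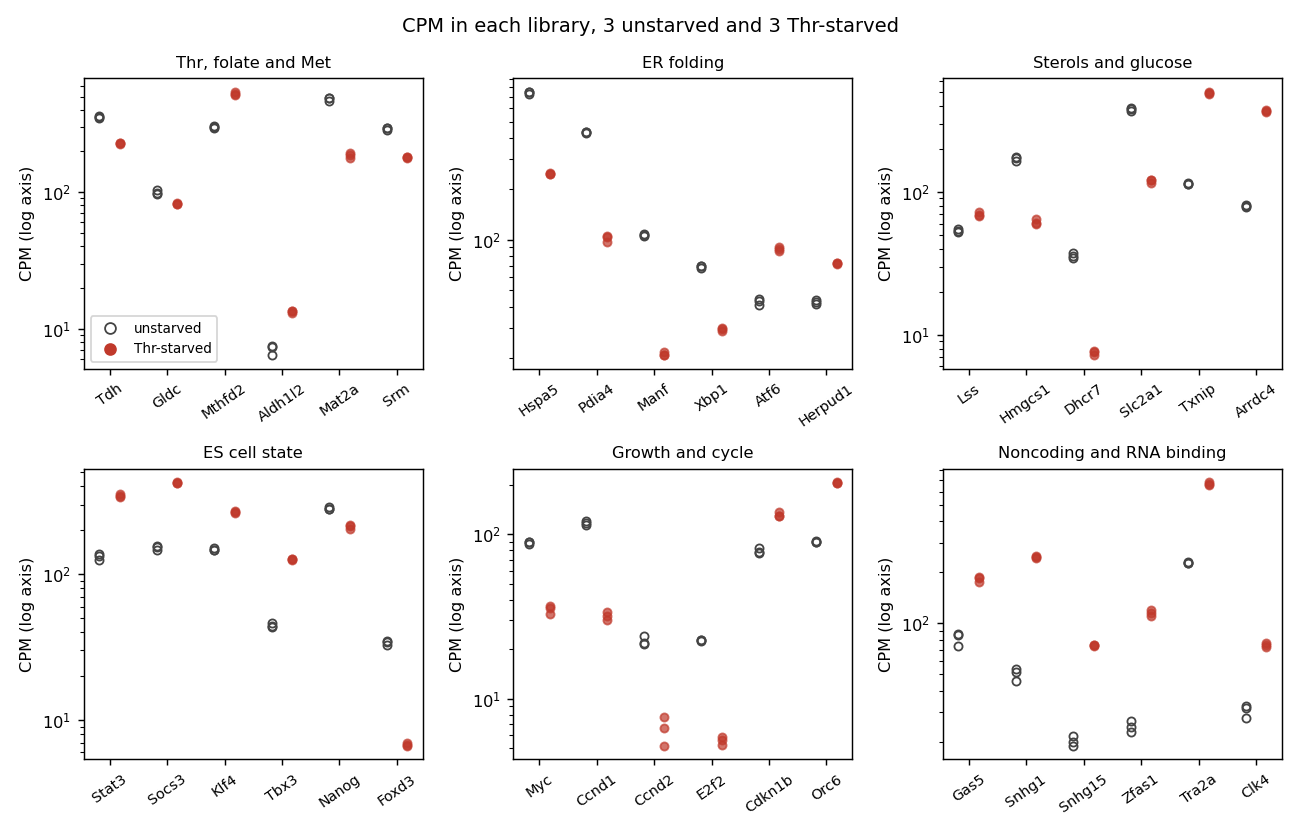
CPM of single genes in each library, on log axes, with open circles for the 3 unstarved and filled circles for the 3 Thr-starved libraries. The circles of the 2 groups separate for every gene shown, upward for Mthfd2, Atf6, Txnip, Stat3, Cdkn1b and Snhg1 and downward for Tdh, Hspa5, Dhcr7, Nanog, Myc and Foxd3.

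Of 29 p53 target genes, 24 were called higher, 4 lower and 1 neither (median log2 fold change 0.95). Of the 27 expressed ones 23 were called higher, against 42% of all expressed genes. The lists share members: 10 of the 29 are in other lists too, such as Sesn2 and Tnfrsf10b in the ISR list. The rises of these lists are therefore not separate observations. Plk2, a kinase of the stress response, was at 28, 29.7 and 27.3 CPM in the unstarved and 102, 101 and 101 CPM in the Thr-starved libraries (log2 fold change 1.84, SE 0.036, adjusted p = 2.6e-21), and Mdm2, the ligase that degrades p53, at 96.9, 102 and 96.8 CPM in the unstarved and 262, 264 and 258 CPM in the Thr-starved libraries (log2 fold change 1.41, SE 0.027, adjusted p = 1.6e-21). Both were higher in every Thr-starved library. Xpc, a DNA damage sensor in the same list, fell by 0.82 ± 0.049 (SE) on the log2 scale (adjusted p = 9.4e-13). The related Gadd45g, Gadd45a and Gadd45b rose by 3.8, 1.88 and 1.58 on the log2 scale. Of 15 BCL2-family genes 4 were higher and 7 lower, and the killers were divided: the p53-linked BH3-only genes Bbc3 (PUMA) and Pmaip1 (NOXA) and Hrk changed by 1.0, 1.14 and 1.6, whereas Bcl2l11 (BIM) and Bmf changed by -1.1 and -1.49. The survival gene Mcl1, whose mRNA and protein turn over fast, rose from 307 to 534 CPM (log2 fold change 0.80, SE 0.023, adjusted p = 2.5e-18).

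Immediate early genes, which respond to signals without new protein synthesis, were higher in 16 of 28 and lower in 7 cases, with a median log2 fold change of 0.60. Of the 20 expressed ones 14 were called higher, against 42% of all expressed genes. Jun, of the AP-1 factor, was at 5.31, 6.62 and 6.14 CPM in the unstarved and 46.2, 44.6 and 44.6 CPM in the Thr-starved libraries (log2 fold change 2.91, SE 0.061, adjusted p = 9.7e-21), and Klf6 at 67.2, 70.0 and 67.8 CPM in the unstarved and 262, 258 and 266 CPM in the Thr-starved libraries (log2 fold change 1.94, SE 0.027, adjusted p = 1.6e-23). Both lay above the unstarved range in all Thr-starved libraries. The orphan receptor Nr4a1 fell by 1.27 ± 0.052 (SE) on the log2 scale (adjusted p = 1.5e-15). Feedback genes of ERK signaling had no shared direction, with 9 of 18 higher and 9 lower. In that list, the phosphatase genes Dusp16 and Dusp6 rose by 1.69 ± 0.036 (SE) on the log2 scale (adjusted p = 1.2e-20) and 0.83 ± 0.029 (SE) on the log2 scale (adjusted p = 1.2e-16), and the inhibitors Spry4 and Spred2 fell by 0.70 ± 0.026 (SE) on the log2 scale (adjusted p = 2.8e-16) and 0.76 ± 0.046 (SE) on the log2 scale (adjusted p = 1.3e-12).

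Targets of NRF2, the factor of the antioxidant response, were called lower in 17 of 21 cases and higher in 1, with a median of -0.57. Srxn1, which repairs oxidized peroxiredoxins, was at 36, 36.1 and 35 CPM in the unstarved and 6.63, 7.84 and 7.33 CPM in the Thr-starved libraries (log2 fold change -2.3, SE 0.058, adjusted p = 3.3e-19), and Pgd, which makes NADPH in the pentose phosphate pathway, at 164, 170.0 and 166 CPM in the unstarved and 59, 58.4 and 61 CPM in the Thr-starved libraries (log2 fold change -1.48, SE 0.028, adjusted p = 1.4e-21). The Thr-starved libraries lay below the unstarved ones in both. The heme oxygenase Hmox1 was the member that rose (log2 fold change 0.84, SE 0.028, adjusted p = 4.0e-17), and the metallothioneins Mt1 and Mt2, small zinc-binding proteins, rose by 0.81 ± 0.039 (SE) on the log2 scale (adjusted p = 2.1e-14) and 0.62 ± 0.039 (SE) on the log2 scale (adjusted p = 3.6e-12).

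LIF keeps ES cells naive through STAT3, and genes of this route were mostly higher without Thr. Of 15 genes, 9 were called higher, 3 lower and 3 neither (median log2 fold change 0.54), and the median of the expressed members was -0.046 to 0.033 in the unstarved and 0.77 to 0.80 in the Thr-starved libraries. Of the 13 expressed members 8 were called higher, against 42% of all expressed genes. Stat3 itself was at 126, 138 and 134 CPM in the unstarved and 344, 353 and 338 CPM in the Thr-starved libraries (log2 fold change 1.38, SE 0.029, adjusted p = 9.7e-21). Pim1, a kinase gene that STAT3 switches on, was at 49.5, 49.5 and 51.4 CPM in the unstarved and 158, 164 and 162 CPM in the Thr-starved libraries (log2 fold change 1.69, SE 0.033, adjusted p = 2.7e-21), and Socs3, the feedback inhibitor of the receptor, at 147, 155 and 154 CPM in the unstarved and 419, 426 and 424 CPM in the Thr-starved libraries (log2 fold change 1.48, SE 0.025, adjusted p = 3.0e-22). All Thr-starved libraries were above the unstarved ones in the 3 genes. The cytokine Lif was low, from 3.55 to 11 CPM (log2 fold change 1.64, SE 0.10, adjusted p = 1.6e-12), the kinase gene Tyk2 fell by 0.58 ± 0.036 (SE) on the log2 scale (adjusted p = 2.9e-12, -0.30 with GC and length offsets), and the feedback gene Socs2 was not called (log2 fold change -0.021, adjusted p = 0.54, -0.11 with GC and length offsets).

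Factors of naive pluripotency split, with 13 called higher, 10 lower and 1 neither (median log2 fold change 0.14; 0.092 with GC and length offsets) among 24. Tbx3, a T-box factor downstream of LIF, was at 43.2, 43.9 and 46.3 CPM in the unstarved and 126, 128 and 126 CPM in the Thr-starved libraries (log2 fold change 1.51, SE 0.031, adjusted p = 7.3e-21). Its companions Klf4 and Klf5 rose by 0.85 ± 0.023 (SE) on the log2 scale (adjusted p = 1.2e-18) and 1.09 ± 0.027 (SE) on the log2 scale (adjusted p = 2.4e-19), and Esrrb and Sox2 by 0.43 and 0.44 on the log2 scale. Nanog was at 289.9, 280.2 and 278 CPM in the unstarved and 204, 214 and 216 CPM in the Thr-starved libraries (log2 fold change -0.42, SE 0.027, adjusted p = 3.5e-12), with 20.4% of its transcript matched by copies. Gbx2 and Utf1, both marks of the undifferentiated state, fell by 1.8 ± 0.043 (SE) on the log2 scale (adjusted p = 1.3e-19) and 1.69 ± 0.028 (SE) on the log2 scale (adjusted p = 1.3e-22). The groups were apart in each of these genes, as they were in 82% of all expressed genes. Calls of both signs were also the rule outside the list, at 42% higher and 38.6% lower among all expressed genes.

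Genes of the formative and primed states, which ES cells pass through as they leave naive pluripotency, were lower in part: of 17, 3 were called higher, 10 lower and 4 neither (median log2 fold change -0.71). Of these, 7 were expressed, 3 called higher and 4 lower, and the other lower calls were in genes under 5 CPM. Foxd3, a forkhead factor, was at 34.6, 35.1 and 32.7 CPM in the unstarved and 6.92, 6.73 and 6.62 CPM in the Thr-starved libraries (log2 fold change -2.34, SE 0.059, adjusted p = 2.6e-19), and Pou3f1 (OCT6), a POU factor of the epiblast, at 16.3, 17.8 and 16.3 CPM in the unstarved and 3.8, 4.49 and 3.26 CPM in the Thr-starved libraries (log2 fold change -2.15, SE 0.090, adjusted p = 2.0e-15). Neither overlapped between the groups. The de novo DNA methyltransferases Dnmt3a and Dnmt3b fell by 0.90 ± 0.033 (SE) on the log2 scale (adjusted p = 2.1e-16) and 0.71 ± 0.025 (SE) on the log2 scale (adjusted p = 8.2e-17). Zic2 and Otx2, which belong to the same states, rose by 1.16 ± 0.042 (SE) on the log2 scale (adjusted p = 1.4e-16) and 0.73 ± 0.058 (SE) on the log2 scale (adjusted p = 1.7e-10). Fgf5, the usual mark of formative cells, had unstarved and Thr-starved means of 0.762 and 0.0545 CPM (log2 fold change -3.66), at a level of few counts.

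In the BMP and Nodal routes, which steer ES cell fate through SMAD factors, the ligand Bmp4 was at 67.3, 63.8 and 69.7 CPM in the unstarved and 15.5, 15.9 and 14.9 CPM in the Thr-starved libraries (log2 fold change -2.12, SE 0.045, adjusted p = 1.3e-20). Id1, a BMP target that blocks differentiation factors, was at 52.1, 53.9 and 53.4 CPM in the unstarved and 18.2, 17.3 and 21.1 CPM in the Thr-starved libraries (log2 fold change -1.48, SE 0.060, adjusted p = 1.0e-15), and Fst, which captures activin, at 5.34, 4.93 and 5.04 CPM in the unstarved and 18.5, 21.1 and 19.1 CPM in the Thr-starved libraries (log2 fold change 1.94, SE 0.076, adjusted p = 5.9e-16). Bmp4 and Id1 were below and Fst above the unstarved range in every Thr-starved library. Smad3, the transducer of Nodal and activin, fell by 1.72 ± 0.061 (SE) on the log2 scale (adjusted p = 1.0e-16). The list as a whole had 9 of 22 genes higher and 9 lower, with a median of 0.089 that turned to -0.066 without unstarved replicate 1 and to -0.011 without Thr-starved replicate 3. In the Notch route, of 22 genes 7 were called higher, 12 lower and 3 neither (median log2 fold change -0.47; -0.28 with GC and length offsets), but of the 13 expressed ones 6 were called higher and 6 lower, with a median of 0.0062. The ligand gene Dll1, which overlaps a noncoding gene on the other strand, rose from 1.38 to 14.5 CPM (log2 fold change 3.4, SE 0.12, adjusted p = 5.7e-17). The receptor Notch4 and the glycosyltransferase Lfng, which tunes receptor binding, fell by 1.97 ± 0.077 (SE) on the log2 scale (adjusted p = 6.5e-16) and 1.73 ± 0.099 (SE) on the log2 scale (adjusted p = 5.2e-13).

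Of 12 genes of the MYC network, 2 were called higher, 9 lower and 1 neither (median log2 fold change -0.45, and -0.28 with GC and length offsets). The list mixes MYC genes, which drive growth and ribosome production, with repressors that bind the same partner, MAX. Its count and median therefore have no single reading. Myc was at 87.4, 89.3 and 89 CPM in the unstarved and 32.7, 36.7 and 35.4 CPM in the Thr-starved libraries (log2 fold change -1.34, SE 0.036, adjusted p = 8.8e-19), and its paralog Mycn, the more abundant in these cells, at 296, 309.7 and 303 CPM in the unstarved and 255, 262 and 269 CPM in the Thr-starved libraries (log2 fold change -0.21, SE 0.025, adjusted p = 1.5e-07, -0.041 with GC and length offsets). Every Thr-starved library was below the unstarved range for both genes. Mxi1 (MXD2), a repressor that competes for the partner MAX, fell by 1.55 ± 0.069 (SE) on the log2 scale (adjusted p = 5.4e-15). Higher instead were Mga and Mxd1, which also bind MAX and repress, and which rose by 1.08 ± 0.062 (SE) on the log2 scale (adjusted p = 5.8e-13) and 1.03 ± 0.067 (SE) on the log2 scale (adjusted p = 5.3e-12).

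Of 22 cyclin, CDK inhibitor and related genes of the G1 phase, 9 were called higher, 6 lower and 7 neither (median log2 fold change 0.039). Ccnd1 and Ccnd2, the D-type cyclins that respond to mitogens, were at 114, 119.6 and 117 CPM in the unstarved and 30.1, 33.7 and 31.7 CPM in the Thr-starved libraries (log2 fold change -1.88, SE 0.035, adjusted p = 1.7e-21) and at 21.9, 24.2 and 21.5 CPM in the unstarved and 5.14, 6.63 and 7.69 CPM in the Thr-starved libraries (log2 fold change -1.77, SE 0.089, adjusted p = 4.7e-14). E2f2, a factor of S-phase entry, was at 22.6, 22.3 and 22.7 CPM in the unstarved and 5.84, 5.64 and 5.21 CPM in the Thr-starved libraries (log2 fold change -2.03, SE 0.062, adjusted p = 7.6e-18). The 3 genes were lower in every Thr-starved library. The CDK inhibitors Cdkn1b (p27) and Cdkn1a (p21) rose by 0.74 ± 0.034 (SE) on the log2 scale (adjusted p = 8.2e-15) and 1.66 ± 0.034 (SE) on the log2 scale (adjusted p = 7.3e-21), and Rbl2 (p130), a pocket protein of quiescent cells, by 0.94 ± 0.081 (SE) on the log2 scale (adjusted p = 6.5e-10).

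Replication genes were on the higher side, with 29 called higher, 7 lower and 8 neither (median log2 fold change 0.35) among 44, against 42% of expressed genes called higher. Orc6, of the origin recognition complex, was at 91.3, 89.7 and 90.2 CPM in the unstarved and 204, 204 and 206 CPM in the Thr-starved libraries (log2 fold change 1.18, SE 0.025, adjusted p = 1.1e-20). Gins3, of the replicative helicase, Rpa2, of the single-strand binding complex, and Pola1, of the priming polymerase, rose by 1.01, 0.64 and 0.63 on the log2 scale. Of 26 mitotic genes, 18 were called higher, 6 lower and 2 neither (median log2 fold change 0.25). The kinetochore motor Cenpe changed by 0.78 and the proliferation marker Mki67 by 0.67, while Bub1b, of the spindle checkpoint, fell by 0.67 ± 0.023 (SE) on the log2 scale (adjusted p = 8.2e-17). Whether these levels come from a changed share of cells in each phase was not tested.

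Ribosomal protein genes shifted down by small amounts. Of 79, 11 were called higher, 55 lower and 13 neither (median log2 fold change -0.10), and Rpl8, of the large subunit, was at 1445, 1472 and 1442 CPM in the unstarved and 912, 908 and 925 CPM in the Thr-starved libraries (log2 fold change -0.67, SE 0.016, adjusted p = 1.3e-19, -0.41 with GC and length offsets). Rps6, a small-subunit protein phosphorylated downstream of mTORC1, fell by 0.69 ± 0.018 (SE) on the log2 scale (adjusted p = 3.8e-19), but 86.4% of its transcript has near copies, as many transcripts of the list do. Genes of ribosome assembly in the nucleolus had no common direction, at 24 of 65 higher and 28 lower: Polr1b, a subunit of RNA polymerase I, and the assembly factor Wdr12 fell by 0.96 ± 0.024 (SE) on the log2 scale (adjusted p = 2.7e-19) and 1.17 ± 0.036 (SE) on the log2 scale (adjusted p = 9.1e-18), and the assembly factors Tsr1 and Brix1 rose by 0.68 ± 0.024 (SE) on the log2 scale (adjusted p = 1.4e-16) and 0.64 ± 0.023 (SE) on the log2 scale (adjusted p = 1.7e-16, 0.42 with GC and length offsets). Translation initiation factors were equally balanced, with 18 of 41 in each direction. Eif1 and its paralog Eif1b were the strongest rises (1.33 and 1.05), and Eif3l, of the scaffold eIF3, the strongest fall, at 352, 364 and 358 CPM in the unstarved and 169, 177 and 176 CPM in the Thr-starved libraries (log2 fold change -1.04, SE 0.024, adjusted p = 5.8e-20).

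Spliced noncoding transcripts that host small nucleolar RNAs (snoRNAs) in their introns are known to be degraded during translation. Of 16, 10 were called higher, 5 lower and 1 neither (median log2 fold change 0.48). Zfas1 was at 26.6, 22.8 and 24.5 CPM in the unstarved and 114, 110.3 and 120.3 CPM in the Thr-starved libraries (log2 fold change 2.23, SE 0.048, adjusted p = 2.0e-20), Gas5 at 85.5, 73.8 and 86.5 CPM in the unstarved and 186, 176 and 188 CPM in the Thr-starved libraries (log2 fold change 1.16, SE 0.042, adjusted p = 1.6e-16) and Snhg15 at 21.6, 18.8 and 20.1 CPM in the unstarved and 74.8, 74.6 and 74 CPM in the Thr-starved libraries (log2 fold change 1.89, SE 0.046, adjusted p = 1.5e-19). The 3 were higher in all Thr-starved libraries. Dancr, however, was at 9.84, 7.66 and 10.5 CPM in the unstarved and 2.33, 2.29 and 1.76 CPM in the Thr-starved libraries (log2 fold change -2.16, SE 0.12, adjusted p = 6.0e-13) and Snhg5 changed by -1.21, so the list did not move as one. Among all expressed genes, the 171 that are neither protein coding nor pseudogenes, mostly long noncoding, had a median of 0.18, with 31 higher and 5 lower by at least 1.

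Lysosomal genes were mostly higher: of 35, 24 were called higher, 9 lower and 2 neither (median log2 fold change 0.31). Of the 33 expressed ones 24 were called higher, against 42% of all expressed genes. Hexa, which degrades gangliosides, was at 23.1, 22.2 and 23.5 CPM in the unstarved and 52.1, 49.7 and 55.8 CPM in the Thr-starved libraries (log2 fold change 1.2, SE 0.045, adjusted p = 2.5e-16). Mcoln1, the lysosomal calcium channel, and Lamp2, a membrane protein of lysosomes, rose by 0.97 ± 0.058 (SE) on the log2 scale (adjusted p = 1.1e-12) and 0.81 ± 0.040 (SE) on the log2 scale (adjusted p = 4.3e-14). Lipa, the acid lipase that frees cholesterol from its esters, fell instead, from 12.8 to 5.36 CPM (log2 fold change -1.26, SE 0.080, adjusted p = 3.6e-12). Autophagy genes had 17 called higher, 7 lower and 9 neither (median log2 fold change 0.25, and 0.14 with GC and length offsets) among 33. Of the 30 expressed ones 17 were called higher, beside the same 42%. Atg12 and Atg5, which form the conjugate that lipidates LC3, rose by 0.86 ± 0.038 (SE) on the log2 scale (adjusted p = 4.6e-15) and 0.55 ± 0.041 (SE) on the log2 scale (adjusted p = 5.7e-11), Map1lc3b (LC3B) by 0.27 ± 0.032 (SE) on the log2 scale (adjusted p = 1.2e-07, 0.44 with GC and length offsets), and Atg13, of the initiating kinase complex, fell by 0.54 ± 0.033 (SE) on the log2 scale (adjusted p = 1.3e-12). The receptor Sqstm1 (p62) was not called (log2 fold change 0.044, adjusted p = 0.15, 0.19 with GC and length offsets).

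The 13 mitochondrially encoded mRNAs gave no stable direction. Their median was 0.13, with 3 called higher, 2 lower and 8 neither, and it turned to -0.012 without unstarved replicate 2 and to -0.14 with GC and length offsets. Their chromosome took 0.443% to 0.765% of the counts in the unstarved and 0.551% to 0.735% in the Thr-starved libraries, ranges that overlap.

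Set directly against the Cys-starved libraries, 62% of all genes were called, 30.4% higher and 31.6% lower without Thr, and 80.5% of expressed genes, 44.3% higher and 36.2% lower. The split of calls was 49.0% higher, and 53.5% with the deposited size factors. A change of at least 1 left 297 expressed genes higher (2.61%) and 410 lower (3.61%), and over all genes 3.7% and 7.73%. Outside the ISR list, Stat3 was higher without Thr than without Cys by 1.36 (SE 0.029, adjusted p = 1.8e-20) and Txnip by 1.03 (SE 0.024, adjusted p = 1.3e-19), on the log2 scale. Lower without Thr were Hspa5 by -1.05 (SE 0.021, adjusted p = 8.1e-21), Tdh by -0.40 (SE 0.022, adjusted p = 2.6e-13) and Mat2a by -1.18 (SE 0.030, adjusted p = 3.9e-19). In Cys-starved cells these 5 genes averaged 134, 242, 511, 301 and 421 CPM in the order given. Of the 21 ISR genes, 11 were called higher without Thr than without Cys and 8 lower, with a median difference of 0.098. Single members differed by more in both directions. Ddit3 (CHOP) was higher by 2.21 (SE 0.042, adjusted p = 3.8e-21), and Cebpg and Sesn2 had differences of 1.0 and 0.78. Among the 8 lower ones, Vldlr, Jdp2, Stc2 and Chac1 had differences of -0.88, -0.78, -0.64 and -0.41. Of the 23 sterol genes 2 were higher and 20 lower, with a median of -0.39. In the LIF list the counts were 11 and 2 with a median of 0.67, and in the ER list 8 and 13 with -0.12.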

How the data were processed

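Poly(A) mRNA of 9 E14 ES cell libraries, 3 each of Thr-starved, Cys-starved and unstarved cells, was sequenced with a directional kit. Per the labels, the authors mapped reads to GRCm38 with STAR 2.7.4a and counted them with HTSeq, and they deposited raw counts per gene, without normalization. A companion table holds a signal, the same counts each divided by its library's size factor, which the authors took from DESeq2 before they deposited it; it gave only the size factors of an alternative. Strand and overlap settings of the counting are not given in the sources used here. Even values made up 67.8% of counts from 1 to 20, and halved counts were an alternative. Between libraries of a group the chi-square was 1.98 to 2.13 per gene, and 0.99 to 1.07 with halved counts, so if both mates of a pair were counted they differed by about sampling noise; no pair stood apart and none was identical, and each was kept as a sample. Of 20189 genes, 20143 with at least 1 count were fitted in R 4.3.3 with edgeR 4.0.16 (TMM, quasi-likelihood F test, all 9 libraries in 1 fit, Benjamini-Hochberg), with contrasts of Thr-starved against unstarved and against Cys-starved libraries. Same-numbered libraries are not said to be paired. GENCODE M21 named 20171 genes and gave coordinates; near copies of at least 95% identity were searched with BLAST 2.17.0, and promoter windows of 300 bases were from RefSeq (GRCm38.p6), matched by symbol. In simulated counts, 200 of 20143 genes were changed by 0.5 or 1 on the log2 scale. They were drawn only from genes above a minimum mean count. Of these 200, edgeR recovered 188 with 13 false calls and DESeq2 1.42.0 recovered 186 with 10. Recovery of genes with low counts or smaller changes was not simulated. In the data 63% of genes were called, and the rate of false calls where most genes change was not tested. The comparison, its 43 gene lists (8 more were added later) and the named genes were chosen with earlier results of these data known; 1020 genes were in lists and 25 listed genes were not in the table. Genes were named if they were among the 15 strongest rises or falls in log2 fold change of expressed, called genes with groups apart, among the 10 largest gains or losses in CPM, or anchors or up to 4 called expressed members per direction of a list. Cebpa, Zfp42, Fgf5, Dusp8, Arrdc1, Arrdc2, Cebpg, Vldlr, Jdp2, Stc2, Mthfd1l, Canx, Dnajb11, Kdm5c, Col1a2, Col3a1 and promoter examples were named after their values were seen. Genes outside the naming rule were not checked for near copies or with GC and length offsets. Alternatives were DESeq2, RLE, the deposited size factors, filterByExpr, only the 6 libraries compared, a replicate block, 2 thresholds, GC and length offsets and leaving out each library.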

Additional observations from a re-analysis of the deposited data

How the results depend on the processing

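The count of genes called without Thr, 12689, stayed within 1.5 times under all alternatives but the further requirement of a change by 1 or more on the log2 scale, which left 2668 genes, 1166 higher and 1502 lower. For Thr against Cys, that requirement left 2303, 746 higher and 1557 lower, a share of 32.4% higher against 49.0% in the main fit. The other counts were 12293 with DESeq2, 12692 with RLE, 12682 with the deposited size factors, 12651 with filterByExpr, 12558 with only the 6 libraries compared, 12679 with halved counts, 12599 with GC and length offsets (11043 of them also in the main fit), 11257 without pseudogenes (added after seeing the data) and 11031 at an adjusted p of 0.01 or less. Leaving out each library in turn gave 12096 to 12207 genes, 5999 to 6054 higher and 6044 to 6191 lower, and for Thr against Cys 11788 to 12008, 5801 to 5931 higher and 5979 to 6126 lower. A replicate block gave 12488 calls, 12423 of them as without it, but deviations from the group means in Thr-starved and unstarved libraries of the same number correlated at 0.11, -0.073 and 0.010 and 2 of the 6 libraries correlated best with their own number, so the numbers were not taken as pairs. List medians that turned sign were those of nonessential AA synthesis (0.025) and the mitochondrial mRNAs (-0.14) with GC and length offsets, the mitochondrial mRNAs without unstarved replicate 2 (-0.012, with 0.33 without unstarved replicate 1 as the other end of the range), and the BMP list without unstarved replicate 1 (-0.066) and without Thr-starved replicate 3 (-0.011). With GC and length offsets, log2 fold changes turned to -0.069 for Mars2, -0.16 for Dld, 0.18 for Kmt2b, 0.32 for Bax, 0.042 for Pou5f1, -0.074 for Rps20, -0.081 for mt-Co3, -0.012 for mt-Nd6, 0.081 for Srsf9 and 0.00014 for Htra2. The cause was not tested. Of 403 genes under the naming rule 27 changed their call in some alternative. Reads shared by near-identical genes, with pseudogenes at 13.8% to 14.0% of counts in the unstarved and 12.6% to 12.7% in the Thr-starved libraries, limit single-gene values, and low counts limit genes under 1 CPM.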

Other observations

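Lists of 8 further gene groups were drawn up after values of these data had been seen, and they are given as descriptions. Fatty acid synthesis, which is under SREBP control like sterol synthesis, was lower in all its 7 listed genes (median log2 fold change -0.71). Scd2, a desaturase, was at 299.6, 289.5 and 293 CPM in the unstarved and 72, 70.3 and 73 CPM in the Thr-starved libraries (log2 fold change -2.03, SE 0.028, adjusted p = 1.4e-23), and Fasn, fatty acid synthase, at 551, 575 and 522 CPM in the unstarved and 305, 299 and 280.2 CPM in the Thr-starved libraries (log2 fold change -0.90, SE 0.034, adjusted p = 2.6e-16). The Thr-starved libraries lay below the unstarved ones in both. In the pentose phosphate pathway, of 7 genes 1 was called higher, 5 lower and 1 neither (median log2 fold change -0.41); the transketolase Tkt fell by 0.96 ± 0.023 (SE) on the log2 scale (adjusted p = 1.4e-19) and the epimerase Rpe rose by 1.2 ± 0.041 (SE) on the log2 scale (adjusted p = 6.0e-17). Of 16 genes of purine and pyrimidine synthesis, 3 were called higher, 10 lower and 3 neither (median log2 fold change -0.21), and Impdh1, which commits IMP to GTP, was at 67.8, 70.4 and 70.9 CPM in the unstarved and 27.6, 28.7 and 31.1 CPM in the Thr-starved libraries (log2 fold change -1.25, SE 0.042, adjusted p = 4.9e-17). Of 11 hypoxia-inducible genes, 1 was called higher and 10 lower (median log2 fold change -0.65), among them Egln3, an oxygen-sensing prolyl hydroxylase, which fell by 1.17 ± 0.11 (SE) on the log2 scale (adjusted p = 1.9e-09). The cytoskeletal list had 4 called higher, 14 lower and 3 neither (median log2 fold change -0.39) among 21 genes, and Tubb4b, a beta-tubulin with 91.4% of its transcript matched elsewhere, fell by 0.99 ± 0.022 (SE) on the log2 scale (adjusted p = 2.3e-20).

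RNA-binding and RNA-decay genes moved the other way. Of 16 SR proteins, TRA2 proteins and the CLK kinases that phosphorylate them, 13 were called higher and 3 lower (median log2 fold change 0.36). Tra2a, a splicing activator that limits its own mRNA through a poison exon, was at 230.0, 228 and 228 CPM in the unstarved and 664, 657 and 680.4 CPM in the Thr-starved libraries (log2 fold change 1.55, SE 0.021, adjusted p = 1.4e-23), and Clk4 at 31.8, 27.6 and 32.4 CPM in the unstarved and 75, 76.2 and 73 CPM in the Thr-starved libraries (log2 fold change 1.29, SE 0.046, adjusted p = 1.1e-16). Both were above the unstarved range in every Thr-starved library. Tra2b and Clk1 rose by 1.02 ± 0.021 (SE) on the log2 scale (adjusted p = 5.9e-21) and 1.0 ± 0.028 (SE) on the log2 scale (adjusted p = 1.7e-18), and 25.5% of the Tra2b transcript has near copies. Of 10 factors of nonsense-mediated decay, 9 were called higher and 1 lower (median log2 fold change 0.60); the kinase cofactor Smg9 and the core factor Upf2 rose by 0.86 ± 0.045 (SE) on the log2 scale (adjusted p = 9.0e-14) and 0.65 ± 0.037 (SE) on the log2 scale (adjusted p = 4.9e-13). Of 13 mitochondrial chaperones and proteases, 7 were called higher, 5 lower and 1 neither (median log2 fold change 0.07; 0.0085 with GC and length offsets), and the main pair diverged: Hspd1 (HSP60) was at 1454, 1473 and 1478 CPM in the unstarved and 514, 516 and 522 CPM in the Thr-starved libraries (log2 fold change -1.5, SE 0.016, adjusted p = 4.7e-25), with 71.1% of its transcript matched by pseudogenes, and Hspa9 (mitochondrial HSP70) at 1105, 1107 and 1111 CPM in the unstarved and 1551, 1543 and 1585 CPM in the Thr-starved libraries (log2 fold change 0.49, SE 0.016, adjusted p = 2.1e-17).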
